A study of Mus musculus with 8 samples.

Results

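The T cell receptor is the sensor through which a CD4+ T cell reads antigen, and its signal-carrying core was followed here in mouse cells activated with or without a Notch ligand. The 9 genes chosen by name were Cd3d, Cd3e, Cd3g and Cd247 of the receptor complex, the coreceptor Cd4, the kinases Lck and Zap70, the adaptor Lat and the costimulatory receptor Cd28. Every probe annotated to one of these symbols was taken, which gave 14 probes for 8 of the 9 genes, out of 25697 probes for 16593 named genes in all. Lck has no probe under its name in the annotation used and was not analysed here. The rule uses gene names and no threshold on a measured value, but the genes were chosen with earlier results of these data known.

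The cells came from C57BL6/NCrl mice. CD4+ T cells of naive surface phenotype (positive for CD62L, and negative for CD44, CD25 and DX5) were taken from spleen and from inguinal, axillary and brachial lymph nodes. The 4 groups were Delta4-Ig at day 3, control Ig at day 3, Delta4-Ig at day 1 and control Ig at day 1. Delta4-Ig is the Notch ligand Delta-like 4 fused to an immunoglobulin tail, and in every group the wells carried antibody to CD3e, with antibody to CD28 in solution. All groups, controls included, therefore had both the receptor complex and Cd28 engaged by antibody, and no unstimulated cells are among the samples. Day 3 had mouse 1 and mouse 2 in each stimulus, with 2 technical arrays for mouse 1, and day 1 had mouse 1 alone. The 8 arrays thus hold 6 samples from 2 mice. The labels do not say that stimulus wells of one mouse were replicated, so the spread at day 3 is that between the 2 mice.

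In a resting T cell the alpha and beta chains of the receptor bind antigen but carry almost no signalling tail. The CD3 delta, epsilon and gamma chains and the CD247 (zeta) chain carry tyrosine motifs that Lck, brought in by the coreceptor CD4, phosphorylates. ZAP-70 docks on the phosphorylated motifs and phosphorylates the scaffold LAT, from which calcium, Ras and NF-kB signalling branch, while CD28 supplies the costimulatory signal that full activation of naive cells needs.

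Values are normalized log2 intensities as deposited by the authors, so a difference of 1 is a doubling. A probe was called detected on an array when its detection p-value, which sets it against negative control probes, was under 0.01. Per array 8940 to 10543 probes were detected, and 10744 probes detected on at least 2 arrays were tested. All 14 member probes passed this filter, and 12 were detected on all 8 arrays. The 2 exceptions were Zap70 probe ILMN_1223542, missed on 1 control Ig array at day 3, and Cd247 probe ILMN_2828172, missed on both day 1 arrays and on that same control Ig array. Levels of different probes are not compared with each other, because probes differ in brightness. In bulk RNA, fewer cells carrying a transcript and less RNA per cell cannot be told apart.

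The defining markers of the labelled cell type were present, with 4 of 4 measured genes (Cd4, Cd3e, Cd5 and Thy1) detected on all 8 arrays. Of 5 measured B cell markers, Cd79a, Ms4a1, Cd22 and Blk were detected on no array and Cd79b on 1. Of 6 measured myeloid markers, Lyz2, Lyz1, Itgam, Cd14 and Itgax were detected on none, and Adgre1 on 2. Summed linear intensity of the B cell markers was 187 to 209 with Delta4-Ig and 191 to 215 with control Ig at day 3, against 192 and 189 at day 1. Cd8a was not detected on any array, but Cd8b1, the beta chain of the CD8 coreceptor, was detected on all 8 and highest in the Delta4-Ig sample of mouse 2 at 10.56, against 10.01 in control Ig cells of that mouse. Klrd1, a receptor chain of NK and cytotoxic T cells, was likewise at 9.13 in that Delta4-Ig sample and 7.16 in its control. It was not detected in mouse 1 at day 3, but was in both day 1 samples, at 6.12 with Delta4-Ig and 7.41 with control Ig. Klrk1, another NK cell marker, went the other way in mouse 2 at day 3, at 5.83 with Delta4-Ig and 6.90 with control Ig. Klrk1 was detected on 1 array of each stimulus at day 3 and on neither day 1 array. The summed linear intensity of Cd8a and Cd8b1 ran from 742 to 1540 with Delta4-Ig and from 597 to 1060 with control Ig at day 3, against 1060 and 740 at day 1. That of 5 NK cell markers ran from 7280 to 13700 and from 4680 to 6130 at day 3, against 699 and 463 at day 1. Of these, Nkg7, a granule gene of NK and activated T cells, was detected on all 8 arrays, at 12.80 and 13.67 in the mice with Delta4-Ig and 12.55 and 12.09 with control Ig at day 3, against 9.02 and 7.67 at day 1. Klrb1c and Ncr1 were detected on no array. The single measured gamma delta marker, Sox13, was detected on no array, and Pecam1, an adhesion protein of endothelium that some leukocytes carry, was the only detected one of 3 measured erythroid and stromal markers. Pecam1 stood at 6.82 in mouse 1 and 9.40 in mouse 2 with Delta4-Ig at day 3, against 6.87 in mouse 1 and 7.61 in mouse 2 with control Ig, and at 8.26 and 8.43 at day 1. The summed linear intensity of these 3 markers ran from 169 to 731 with Delta4-Ig and from 173 to 254 with control Ig at day 3, against 366 and 402 at day 1.

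The 3 CD3 chain genes lie side by side on chromosome 9, where Cd3g and Cd3d are divided by no other annotated gene, run in opposite directions and start 1355 bases apart, and no annotated gene separates Cd3d from Cd3e. Their RefSeq promoter windows (GRCm38.p6, from 250 bases before to 50 bases after the annotated start) are shown with that of Cd247, on chromosome 1, since these 4 genes form the signalling core of one complex. Capitals mark matches, on either strand, to short motifs of factor families known in T cells: GGAAGT of the ETS family, TGTGGT of the RUNX family, AGATAA of the zinc finger family to which Gata3 belongs, the E-box CAGCTG (which reads the same on both strands), TGGGAA of RBPJ (the DNA-binding partner of Notch) and the core promoter element TATAAA. The windows are Cd3d at chr9:44981536-44981835 on the plus strand, Cd3e at chr9:45009562-45009861 and Cd3g at chr9:44980382-44980681 on the minus strand, and Cd247 at chr1:165788431-165788730 on the plus strand.
Cd3d: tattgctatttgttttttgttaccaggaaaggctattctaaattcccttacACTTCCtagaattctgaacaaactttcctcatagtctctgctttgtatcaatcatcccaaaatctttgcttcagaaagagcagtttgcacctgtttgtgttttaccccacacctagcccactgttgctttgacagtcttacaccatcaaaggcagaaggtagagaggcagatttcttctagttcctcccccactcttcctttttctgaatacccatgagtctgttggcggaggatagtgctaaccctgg
Cd3e: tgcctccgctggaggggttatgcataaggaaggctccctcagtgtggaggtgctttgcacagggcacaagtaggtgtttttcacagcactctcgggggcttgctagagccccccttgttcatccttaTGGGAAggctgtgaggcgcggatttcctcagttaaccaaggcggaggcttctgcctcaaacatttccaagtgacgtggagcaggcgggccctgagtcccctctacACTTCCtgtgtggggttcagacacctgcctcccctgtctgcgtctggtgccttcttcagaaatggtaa
Cd3g: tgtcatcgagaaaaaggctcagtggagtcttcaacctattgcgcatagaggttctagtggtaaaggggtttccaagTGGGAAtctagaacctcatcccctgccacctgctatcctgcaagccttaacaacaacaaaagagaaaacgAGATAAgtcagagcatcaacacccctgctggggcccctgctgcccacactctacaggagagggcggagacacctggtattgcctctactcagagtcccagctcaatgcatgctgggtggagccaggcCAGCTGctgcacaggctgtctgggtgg
Cd247: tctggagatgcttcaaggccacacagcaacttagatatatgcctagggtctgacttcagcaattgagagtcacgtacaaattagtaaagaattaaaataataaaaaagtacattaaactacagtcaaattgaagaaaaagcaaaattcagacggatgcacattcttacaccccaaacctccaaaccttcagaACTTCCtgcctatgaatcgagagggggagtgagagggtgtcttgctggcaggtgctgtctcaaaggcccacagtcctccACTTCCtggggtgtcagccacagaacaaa

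The ETS letters stand in the windows of Cd3d (first base at -199), Cd3e (-18) and Cd247 (-58 and 22), counted from 1 at the annotated start, and not in that of Cd3g. They occur in 23.8% of all 32851 windows in the table. The RBPJ letters stand in the windows of Cd3e (-123) and Cd3g (-174), as they do in 25.6% of all windows. Cd3g also holds the zinc finger motif at -104 and the E-box at 24, which occur in 11.2% and 16.3% of windows. The RUNX letters (16.8% of windows) and the core promoter element (13.6%) are in none of the 4, and no matches overlap. These are descriptions of letters and not binding sites.

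Among the CD3 chains, one sample stood apart. Cd3d, the delta chain, had 13.32 and 13.33 on the 2 arrays of mouse 1 and 14.19 in mouse 2 with Delta4-Ig at day 3, against 13.31 and 13.25 in mouse 1 and 13.36 in mouse 2 with control Ig. At day 1 it stood at 13.12 with Delta4-Ig and 13.18 with control Ig. Only the Delta4-Ig sample of mouse 2 was away from a level shared by the other 5 samples.

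Cd3e, the epsilon chain that the plate-bound antibody binds, had 12.10 and 12.04 in mouse 1 and 13.37 in mouse 2 with Delta4-Ig at day 3, against 12.44 and 12.51 in mouse 1 and 12.49 in mouse 2 with control Ig. Cd3g, the gamma chain, had 12.42 and 12.48 in mouse 1 and 14.11 in mouse 2 with Delta4-Ig, against 13.09 and 13.25 in mouse 1 and 13.44 in mouse 2 with control Ig. For both genes the Delta4-Ig samples lay on either side of the control Ig samples, lower in mouse 1 and higher in mouse 2. The within-mouse difference was -0.41 and 0.88 for Cd3e and -0.72 and 0.67 for Cd3g, while technical arrays of these 3 genes differed by at most 0.16. At day 1 Cd3e was at 12.69 with Delta4-Ig and 12.85 with control Ig, and Cd3g at 13.01 and 12.96.

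Differences of Delta4-Ig minus control Ig at day 3 were fitted over both mice with no term for the mouse. They were 0.44 ± 0.43 (SE) for Cd3d, 0.24 ± 0.53 for Cd3e and -0.02 ± 0.63 for Cd3g. With the mouse as a block the SEs of the same differences were 0.34, 0.39 and 0.40. Cd3d was the one of the 3 that was higher in both mice, by 0.047 in mouse 1 and 0.83 in mouse 2. The mouse 1 value was below the gap of 0.053 between its technical control Ig arrays. The same Delta4-Ig sample of mouse 2 that carried the highest Cd3d, Cd3e and Cd3g also carried the highest Cd8b1, Klrd1, Nkg7 and Pecam1. Klrk1 was lower in it than in its control (5.83 against 6.90), and Cd8a, Klrb1c and Ncr1 were detected on no array. The part of these markers in the CD3 chain values was not tested.

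Cd247, the zeta chain with several tyrosine motifs, was read by 3 probes and was higher with Delta4-Ig in both mice by each. On probe ILMN_1253828 it had 9.32 and 9.08 in mouse 1 and 9.43 in mouse 2 with Delta4-Ig at day 3, against 8.29 and 8.51 in mouse 1 and 8.44 in mouse 2 with control Ig. All 3 Delta4-Ig arrays were above all 3 control Ig arrays, and the 2 mice lay close together within each stimulus. On probe ILMN_1256639 the values were 7.74 and 7.92 in mouse 1 and 9.96 in mouse 2 with Delta4-Ig, against 7.10 and 7.58 in mouse 1 and 8.96 in mouse 2 with control Ig. There mouse 2 exceeded mouse 1 by 2.13 in Delta4-Ig cells and by 1.61 in control Ig cells, more than the stimuli differed, and the groups overlapped. At day 1 the Delta4-Ig and control Ig levels were 7.03 and 6.81 on ILMN_1256639, and on ILMN_1253828 the Delta4-Ig level was 8.41, which is 0.41 above control Ig.

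Probe ILMN_2828172 behaved like the second, with 6.51 and 6.60 in mouse 1 and 8.30 in mouse 2 with Delta4-Ig, against 6.40 and 5.64 in mouse 1 and 7.44 in mouse 2 with control Ig. Its day 1 values, 5.75 with Delta4-Ig and 5.96 with control Ig, were not well above background. The Cd247 differences over both mice, with no mouse term, were 0.89 ± 0.35, 0.74 ± 0.90 and 0.69 ± 0.78 (SE) on the 3 probes in the order given. With the mouse as a block the SEs of the same differences were 0.31, 0.32 and 0.31. The probes thus gave like differences between stimuli, but only ILMN_1253828 gave like levels in the 2 animals. The annotation assigns all 3 to the same transcript record, and their positions along it were not used here.

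Cd4, the coreceptor that binds MHC class II and delivers Lck, had 7.69 and 7.82 in mouse 1 and 8.26 in mouse 2 with Delta4-Ig at day 3, against 8.05 and 7.83 in mouse 1 and 7.69 in mouse 2 with control Ig. The groups overlapped, and the difference was -0.19 in mouse 1 and 0.57 in mouse 2. At day 1 Cd4 was at 8.18 with Delta4-Ig and 8.24 with control Ig. For the stimulus at day 3, the Cd4 difference over both mice was 0.19 ± 0.38 (SE) with no mouse term, smaller than its error. The SE was 0.34 with the mouse as a block.

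Zap70, the kinase that reads the phosphorylated chains, was read by 3 probes. On probe ILMN_2513870 it had 12.55 and 12.31 in mouse 1 and 12.70 in mouse 2 with Delta4-Ig at day 3, against 12.43 and 12.31 in mouse 1 and 12.14 in mouse 2 with control Ig. Single arrays overlapped, while the sample means did not. On probe ILMN_3005740 it had 11.40 and 11.59 in mouse 1 and 11.89 in mouse 2 with Delta4-Ig, against 11.46 and 11.29 in mouse 1 and 11.00 in mouse 2 with control Ig.

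On the dim probe ILMN_1223542 Zap70 had 7.07 and 7.08 in mouse 1 and 6.86 in mouse 2 with Delta4-Ig, against 6.60 and 6.07 in mouse 1 and 6.71 in mouse 2 with control Ig. The size of the stimulus difference varied among the Zap70 probes, from 0.06 to 0.74 in mouse 1 and from 0.16 to 0.89 in mouse 2, always with Delta4-Ig higher. On ILMN_2513870 and ILMN_3005740 the mouse 1 difference was smaller than the gap between its technical arrays with Delta4-Ig. At day 1 the Delta4-Ig and control Ig levels of Zap70 were 13.08 and 13.33 on ILMN_2513870, 12.26 and 12.28 on ILMN_3005740, and 8.01 and 7.73 on ILMN_1223542. Each was above all 4 day 3 samples of its own probe.

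Lat, the membrane scaffold that ZAP-70 phosphorylates, was the steadiest member. It had 13.05 and 13.08 in mouse 1 and 13.09 in mouse 2 with Delta4-Ig at day 3, against 12.80 and 12.82 in mouse 1 and 12.79 in mouse 2 with control Ig. The 3 Delta4-Ig arrays were above the 3 control Ig arrays, and the within-mouse differences were 0.26 and 0.29. At day 1 it was at 13.05 with Delta4-Ig and 13.03 with control Ig, level with the Delta4-Ig samples of day 3. The fitted difference with no mouse term was 0.28 ± 0.34 (SE), and the SE was 0.31 with the mouse as a block. This error borrows from the spread of all probes and is far wider than the gap of at most 0.02 between the mice.

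Cd28, the costimulatory receptor engaged by the soluble antibody, was read by 3 probes and separated the days more than the stimuli. On probe ILMN_2589865 it had 10.54 and 9.92 in mouse 1 and 11.50 in mouse 2 with Delta4-Ig at day 3, against 9.50 and 9.53 in mouse 1 and 10.38 in mouse 2 with control Ig, and 11.66 with Delta4-Ig and 11.92 with control Ig at day 1. On probe ILMN_2589871 it had 10.46 and 9.71 in mouse 1 and 11.39 in mouse 2 with Delta4-Ig, against 9.52 and 9.09 in mouse 1 and 10.23 in mouse 2 with control Ig, and 11.57 and 11.85 at day 1. On both probes day 1 was highest, and Delta4-Ig was above control Ig in each mouse at day 3.

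Probe ILMN_2591361 had 12.58 and 12.51 in mouse 1 and 12.85 in mouse 2 with Delta4-Ig at day 3, against 11.80 and 11.75 in mouse 1 and 12.27 in mouse 2 with control Ig, and 13.22 and 13.42 at day 1. On this Cd28 probe the Delta4-Ig and control Ig samples of day 3 did not overlap, whereas on the other two the control Ig sample of mouse 2 reached above mouse 1 with Delta4-Ig. Technical arrays of mouse 1 with Delta4-Ig differed by 0.63 and 0.74 on ILMN_2589865 and ILMN_2589871, which is close to the stimulus differences of 0.72 and 0.77 in that mouse, but by 0.07 on ILMN_2591361, where the difference was 0.77. In mouse 2 the differences were 1.11, 1.16 and 0.58 on the 3 probes in the same order.

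**Figure D1:**
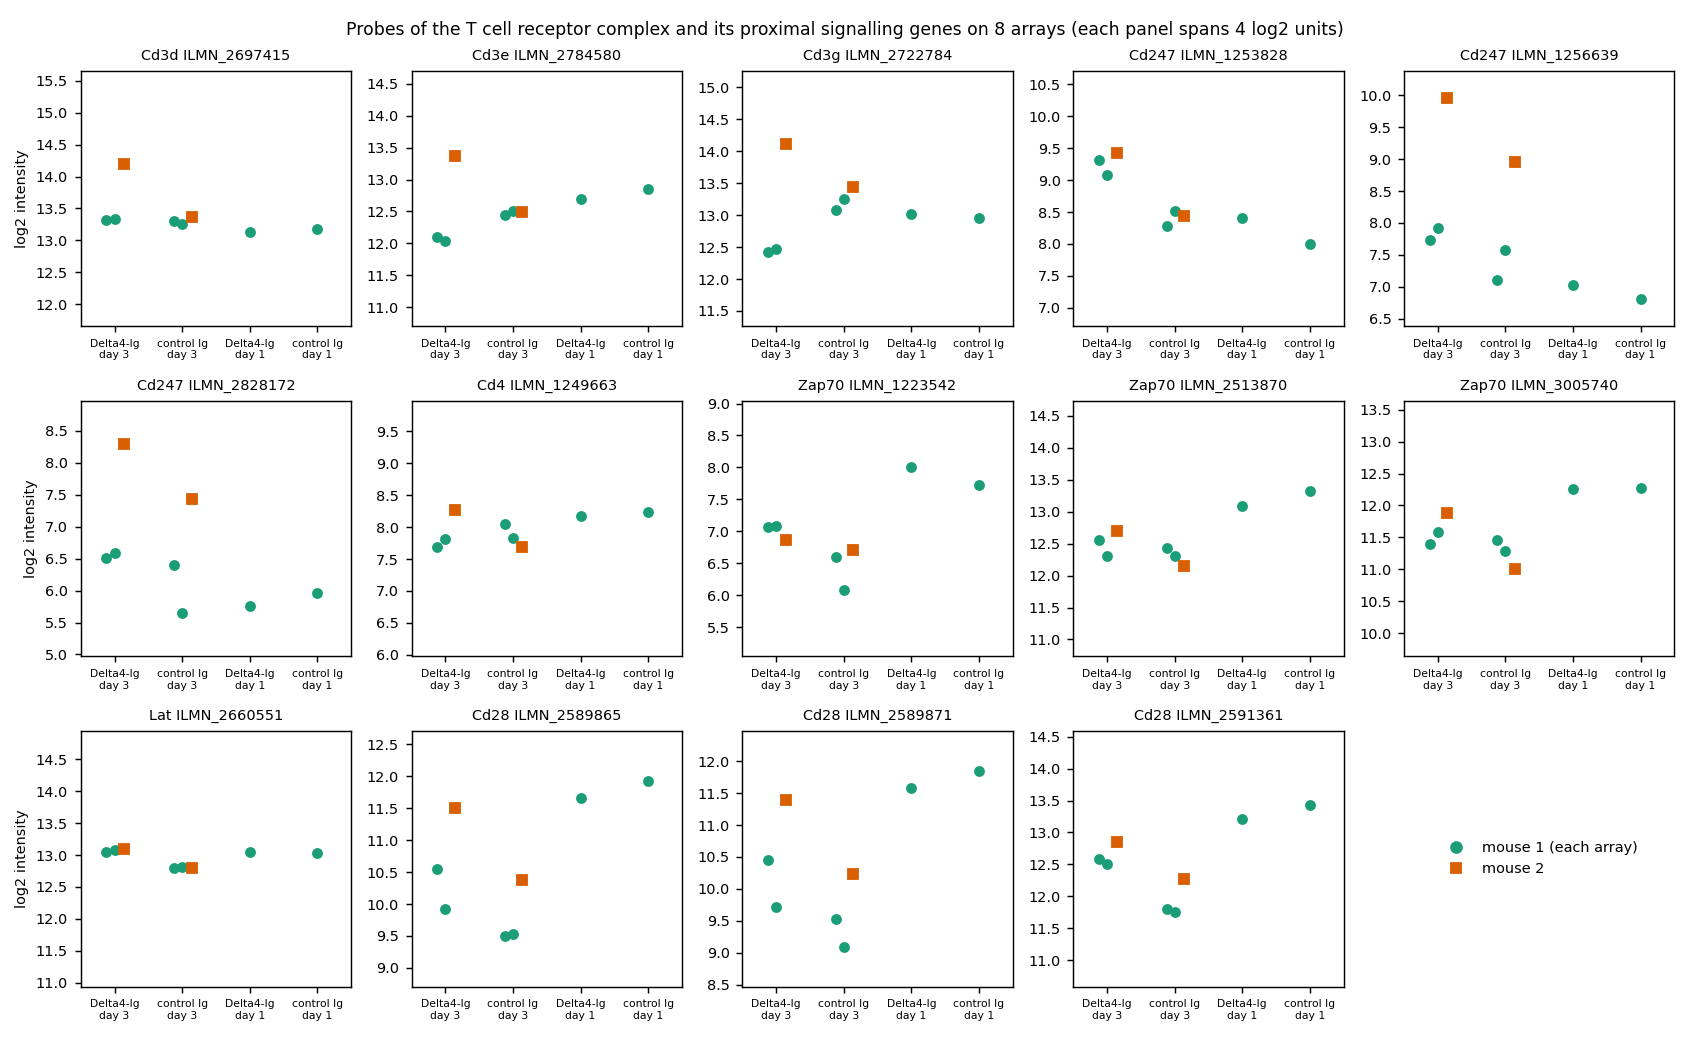
Normalized log2 intensity (vertical axis, each panel spanning the same range) of the 14 member probes on the 8 arrays, by group (horizontal axis), with each array of mouse 1 as a circle and each of mouse 2 as a square. Cd3d, Cd3e and Cd3g are set apart in the Delta4-Ig sample of mouse 2 (14.19, 13.37 and 14.11), Lat is nearly flat, and the Zap70 and Cd28 probes are highest at day 1.

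The day 3 comparison asked whether the Notch ligand changed these genes. Delta4-Ig minus control Ig was above 0 for 11 of 14 probes in mouse 1, where the median was 0.37, and for 14 of 14 in mouse 2, where it was 0.85. Over all 10744 tested probes 48.2% and 46.8% were above 0 in mouse 1 and mouse 2, and the medians were -0.01 and -0.06. The differences were more spread in mouse 2 (SD 0.852) than in mouse 1 (SD 0.604). Higher in both mice were 11 member probes, for Cd3d, Cd247, Zap70, Lat and Cd28, where 26.6% of all tested probes were. In mouse 1 some of these differences were smaller than the gap between technical arrays of the same stimulus. This held for Cd3d (0.047, gap 0.053) and Cd247 ILMN_2828172 (0.53, gap 0.76), both gaps in control Ig cells. It held too for Zap70 ILMN_2513870 (0.06, gap 0.24) and ILMN_3005740 (0.12, gap 0.18), both gaps in Delta4-Ig cells. Both Delta4-Ig samples were above both control Ig samples for 6 member probes (Cd247 ILMN_1253828, the 3 of Zap70, Lat and Cd28 ILMN_2591361), where 12.6% of all tested probes were. Probes of a gene share their target, so these 14 are not independent readings.

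No member probe passed the threshold for the stimulus at day 3. limma without a mouse term placed 0 of 10744 probes (0%) under an adjusted p of 0.05, where 302 had an unadjusted p under 0.05. The lowest adjusted p over all probes was 0.332. Among the members, 1 probe, Cd247 ILMN_1253828, had an unadjusted p under 0.05, and each of the 14 had a limma adjusted p of 1. With the mouse as a block limma called 82 probes (0.763%), none of them a member. The smallest adjusted p among members was then 0.353 (Cd28 ILMN_2589871, 0.97 ± 0.32 SE), followed by 0.385 for Cd28 ILMN_2589865 (0.92 ± 0.32) and 0.389 for Cd247 ILMN_1253828 (0.89 ± 0.31), and these 3 had an unadjusted p under 0.05.

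Without the Delta4-Ig sample of mouse 2 the difference was -0.42 for Cd3e, -0.32 and -0.18 for Cd247 ILMN_1256639 and ILMN_2828172, and -0.06 for Cd4. Without the Delta4-Ig sample of mouse 1 Cd3g stood at 0.81. Without the control Ig sample of mouse 1 the same Cd247 probes stood at -0.06 and -0.01, and without that of mouse 2 Cd3g stood at 0.11. None of these values passed the threshold. Cd3d stood at 0.0059 without the Delta4-Ig sample of mouse 2 and at 0.87 without that of mouse 1. Cd28 ranged from 0.28 to 1.55 on ILMN_2589865, from 0.31 to 1.62 on ILMN_2589871 and from 0.43 to 0.92 on ILMN_2591361 as each day 3 sample was left out. Over the same fits Lat ranged from 0.27 to 0.29 and Cd247 ILMN_1253828 from 0.78 to 1.00, and the 3 Zap70 probes lay between 0.18 and 0.70.

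**Figure D2:**
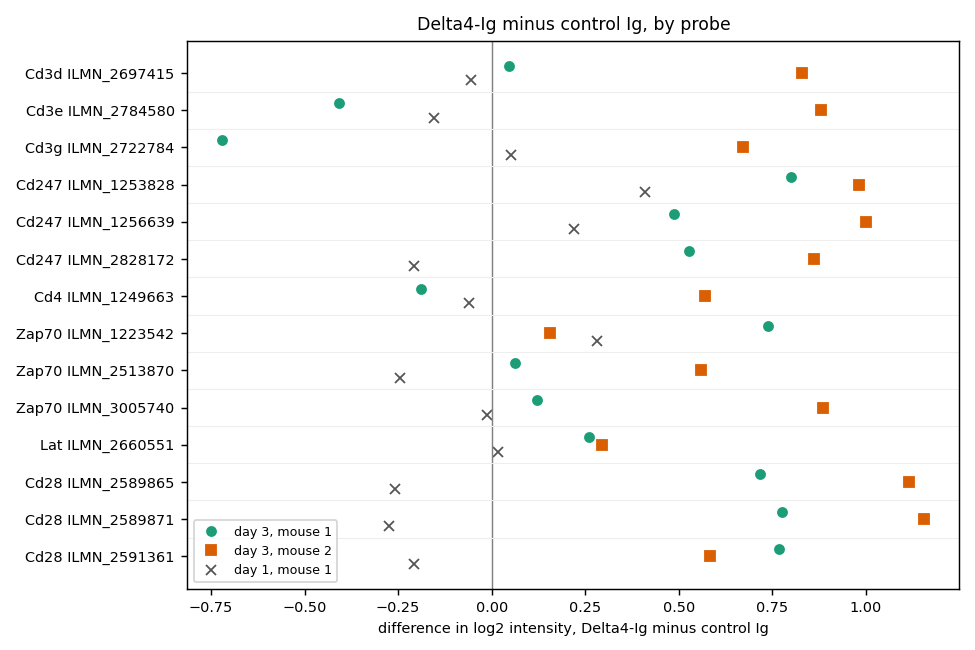
Delta4-Ig minus control Ig in log2 intensity (horizontal axis) for each member probe (rows), within mouse 1 and mouse 2 at day 3 and within mouse 1 at day 1. All 14 squares of mouse 2 are above 0, the circles of mouse 1 are below 0 for Cd3e, Cd3g and Cd4, and the day 1 crosses lie between -0.28 and 0.41.

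At day 1 the stimuli differed little in these genes. Day 1 has 1 sample per stimulus and is given as values, with no test of its own. Delta4-Ig minus control Ig ran from -0.28 (Cd28 ILMN_2589871) to 0.41 (Cd247 ILMN_1253828) with a median of -0.06. Above 0 were 5 of 14 probes, where 51.1% of all tested probes were. None of the 14 reached a 2-fold difference, which 1.51% of all tested probes did. All 3 Cd28 probes were lower with Delta4-Ig at day 1, by 0.26, 0.28 and 0.21 units of log2 intensity, and higher with it at day 3 in both mice. Without the block the difference between the days was 1.24 ± 1.05, 1.17 ± 1.02 and 0.88 ± 0.67 (SE) on Cd28 ILMN_2589871, ILMN_2589865 and ILMN_2591361. With the block the SEs on these probes were 0.55, 0.55 and 0.54. On the other 11 member probes the difference between the days ran from -0.08 to 0.90. limma called 0 probes for it both without the block (0%, 64 at an unadjusted p under 0.05) and with it (0%, 372 at an unadjusted p under 0.05), and each Cd28 probe had an adjusted p of 1 without the block and 0.999 with it.

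Time set day 3 against day 1 of the same activation. Cd28 was lower at day 3 by each of its 3 probes. The threshold was passed by 2 of them with the mouse as a block and by none without it. With the mouse as a block ILMN_2589871 changed by -2.02 ± 0.32 (SE, limma adjusted p = 0.0118), a level 4.04-fold lower at day 3, and ILMN_2589865 by -1.92 ± 0.32 (adjusted p = 0.0141), 3.78-fold lower. The brightest Cd28 probe, ILMN_2591361, changed by -1.16 ± 0.31 and did not pass (limma adjusted p = 0.0679). These 2 calls are of probes of 1 gene. Of all tested probes 885 (8.24%) were called in either direction and 364 (3.39%) as lower at day 3.

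Without the mouse term limma called 0 probes for time (0%, 1493 at an unadjusted p under 0.05, smallest adjusted p = 0.0515), and the Cd28 changes over both mice were -1.46 ± 0.52, -1.38 ± 0.51 and -0.96 ± 0.33 with adjusted p = 0.333, 0.342 and 0.320 for ILMN_2589871, ILMN_2589865 and ILMN_2591361. Without the detection filter the blocked call was lost as well, with adjusted p = 0.0821 for ILMN_2589871 and 0.0839 for ILMN_2589865. Mouse 1 supplied both day 1 samples, so once the mouse is a block, only that animal informs the change over time. The blocked SE and adjusted p rest on how the stimulus difference varied between the mice at day 3 and on the spread of all probes. They do not measure how the change over time varies between animals.

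Within mouse 1 the Cd28 difference between the days was smaller in size with Delta4-Ig than with control Ig on each probe. Day 3 minus day 1 was -1.49 in Delta4-Ig cells and -2.54 in control Ig cells on ILMN_2589871, -1.43 and -2.41 on ILMN_2589865, and -0.67 and -1.64 on ILMN_2591361. This is the same contrast as the difference between the days, restricted to 1 animal, and it has no test of its own.

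Zap70 was lower at day 3 by each probe, and none passed in the deposited values. The changes with the mouse as a block were -1.16 ± 0.33 on ILMN_1223542 (limma adjusted p = 0.0770), -0.80 ± 0.32 on ILMN_2513870 (adjusted p = 0.182) and -0.84 ± 0.34 on ILMN_3005740 (adjusted p = 0.188). With 75th percentile scaling and the block ILMN_1223542 passed (-1.20, adjusted p = 0.0325). All 4 day 3 samples were below both day 1 samples for 6 member probes, the 3 of Zap70 and the 3 of Cd28, where 23.8% of all tested probes were.

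The receptor chains gave no call over time. All 4 day 3 samples were above both day 1 samples for 3 member probes (Cd3d, Cd247 ILMN_1256639 and ILMN_2828172), where 17.1% of all tested probes were. Cd247 ILMN_2828172, detected in neither day 1 sample, was detected on 5 of 6 day 3 arrays. Its day 3 mean over both mice (7.08, against a measured 5.86 at day 1) was at least 1.88-fold higher, with a limma adjusted p of 0.473 without the block. That mean includes mouse 2, which has no day 1 sample, and with the block the change was 0.43 ± 0.31 (adjusted p = 0.463). With the block the changes over time were 0.15 ± 0.34 for Cd3d, -0.50 ± 0.39 for Cd3e, -0.18 ± 0.40 for Cd3g, 0.59 ± 0.31 for Cd247 ILMN_1253828, -0.36 ± 0.34 for Cd4 and -0.10 ± 0.31 for Lat, none past the threshold.

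**Figure D3:**
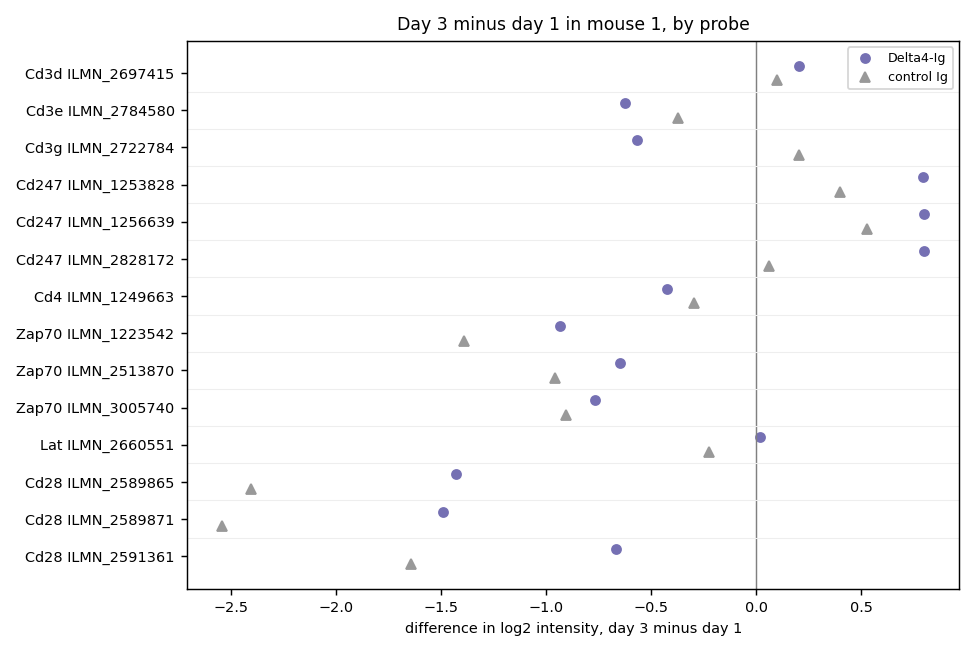
Day 3 minus day 1 in log2 intensity within mouse 1 (horizontal axis) for each member probe (rows), with Delta4-Ig as circles and control Ig as triangles. The Zap70 and Cd28 probes lie below 0 in both stimuli, down to -2.54, and the Cd247 probes lie above 0, up to 0.80.

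Over the 6 samples the members fell into different shapes, each gene read by its brightest probe. Likeness was measured as the root mean square difference of log2 values after each gene was centred on its own mean. The closest pair was Cd4 and Lat at 0.186, and Zap70 and Cd28 differed by 0.267. The neighbours on chromosome 9 differed by 0.283 (Cd3e and Cd3g), 0.305 (Cd3d and Cd3e) and 0.307 (Cd3d and Cd3g). Cd3e was closer to Cd4 (0.253) than to either of these neighbours. Cd247, read by ILMN_1253828, lay 0.321 from Cd3d, 0.590 from Cd3e and 0.596 from Cd3g. The farthest pair was Cd247 and Cd28 at 0.800. Cd247 probes ILMN_1256639 and ILMN_2828172 were not used for these distances or for the CD3 mean. On them mouse 2 exceeded mouse 1 by 2.13 and 1.75 with Delta4-Ig and by 1.61 and 1.41 with control Ig. Flat genes come out close by this measure whatever their shape. Among 5765 genes detected on all 8 arrays, the 3 closest to the mean profile of the 4 CD3 subunits were Arhgap15 (0.0592), Cuta (0.0652) and Tspan14 (0.0660), which shared its high point in the Delta4-Ig sample of mouse 2. The closest to Zap70 was Sgpl1 (0.0667), to Cd28 Impdh1 (0.0776), to Lat Galnt2 (0.0507) and to Cd4 Ift20 (0.0512).

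Around these members, 82 further genes of receptor signalling were listed, of which 70 have a probe and 57 were measured. The receptor's own chains (Trac, Trbc1 and Trbc2) have no probe under those names. At day 3 none of the 57 passed for the stimulus with the block, where 0.826% of all 7504 measured genes did. Higher in both mice with Delta4-Ig were 24 of the 57 (26.4% of all genes), and lower in both were 12 (32.2% of all genes). The median difference was 0.10, against -0.05 over all genes.

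Among 15 adaptors and scaffolds 7 were higher and 2 lower in both mice. Themis, an adaptor of T cell development, had 10.70 in mouse 1 and 10.98 in mouse 2 with Delta4-Ig, against 8.52 and 9.22 with control Ig. Its difference of 1.97 ± 0.32 lay just outside the threshold (limma adjusted p = 0.0510 with the block). Trat1, an adaptor that associates with the receptor complex, differed by -1.93 ± 0.47 (adjusted p = 0.171), -0.96 in mouse 1 and -2.89 in mouse 2.

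Of 14 kinases and effectors 6 were higher and 2 lower in both mice. Tec, a cytoplasmic tyrosine kinase, differed by 1.87 ± 0.39 (limma adjusted p = 0.109 with the block) and was detected on 1 of 3 control Ig arrays, and Pik3cd, a catalytic subunit of PI3 kinase, by 1.25 ± 0.36 (adjusted p = 0.265). The 11 negative regulators had 3 higher and 4 lower in both mice, with Dgka, a diacylglycerol kinase, at 0.62 and the phosphatase gene Ptpn22 at 0.40. Of 9 other surface proteins 5 were higher and 3 lower in both mice. The costimulatory receptor Icos, of the same family as Cd28, differed by 1.65 ± 0.32 (limma adjusted p = 0.0922). The inhibitory receptor Ctla4, which shares the ligands of Cd28, differed by 1.45 ± 0.32 (limma adjusted p = 0.125). Of 8 T lineage transcription factors 3 were higher and 1 lower in both mice, with Runx1 at -1.18 and Ets1 at 1.15.

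At day 3 relative to day 1, 2 of the 57 rose and 2 fell with the block, where 5.38% of all measured genes rose and 2.92% fell. Themis rose by 3.06 ± 0.32 (limma adjusted p = 0.00320), against day 1 levels of 6.78 in Delta4-Ig cells and 6.32 in control Ig cells. Ctla4 rose by 1.84 ± 0.32 (adjusted p = 0.0165), with 13.98 and 13.53 in the mice with Delta4-Ig and 12.34 and 12.28 with control Ig at day 3, against 11.61 and 11.03 at day 1. Dgka fell by 1.50 on the log2 scale (SE 0.35, adjusted p = 0.0455) and Nfatc1, a transcription factor driven by calcium signalling, fell by 1.45 (SE 0.32, adjusted p = 0.0387). The 2 other probes of Dgka and 2 of the 3 other probes of Nfatc1 also passed as lower. Pik3cd (-1.47), Rasa1 (-1.29), Cd27 (-1.46), Lef1 (-1.29), Grap (1.19) and Gata3 (2.77) were the other genes among the 2 largest differences of their lists, and did not pass by their brightest probe. A dimmer probe passed as lower for Cd27 (-1.92, limma adjusted p = 0.0268), Ets1 (-2.08, adjusted p = 0.0112) and Ikzf1 (-3.51, adjusted p = 0.00332), so the probes of these 3 genes gave different calls. Without the block none of the 57 passed, and Themis had an adjusted p of 0.0515.

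**Figure D4:**
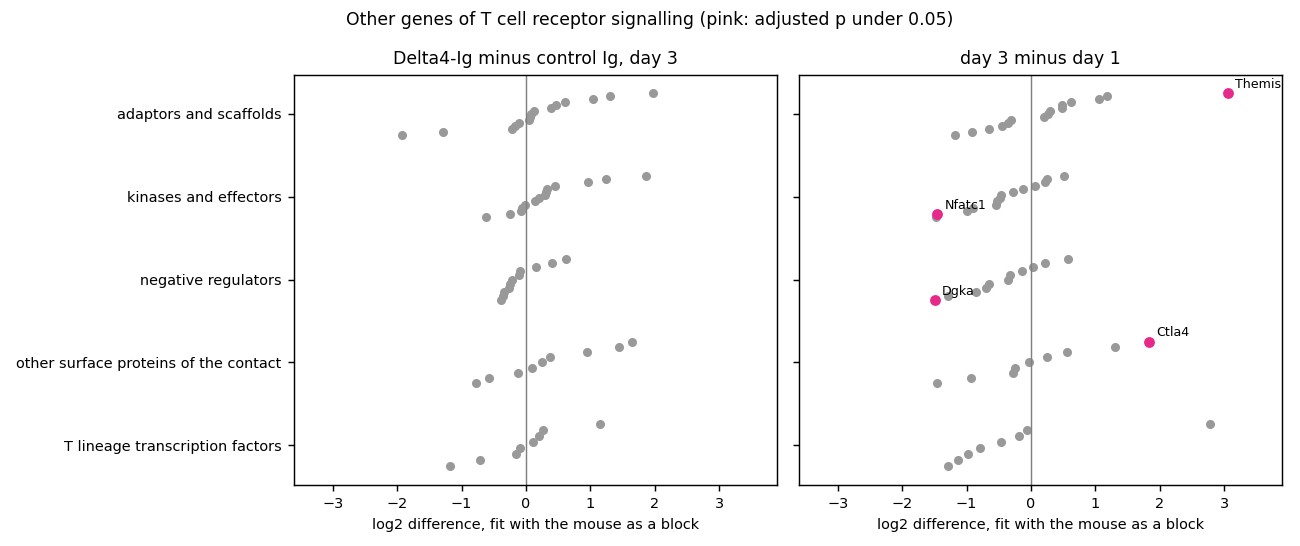
Log2 differences with the mouse as a block in limma (horizontal axes) for 57 further genes of receptor signalling in 5 lists (rows), with Delta4-Ig minus control Ig at day 3 on the left and day 3 minus day 1 on the right. No gene is past the threshold on the left, and on the right Themis and Ctla4 are past it as higher and Nfatc1 and Dgka as lower.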

How the data were processed

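Gene expression was read on 8 Illumina mouse arrays that share 1 chip number, from 6 samples of 2 mice. The authors deposited linear probe intensity values, neither background-subtracted nor normalized, and with each a detection p-value. The deposited log2 values have no stated scale. They differed by at most 0.0417 from values recomputed with neqc of limma 3.58.1 (offset 16, R 4.3.3), and each column had a median of 5.28, so they were read as background-corrected and quantile-normalized. GenomeStudio and limma are named, with no role, per the submitters' processing notes.

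Technical arrays were averaged. A linear model with a mean per group (lmFit and eBayes) was fitted to 10744 probes detected (p-value under 0.01) on at least 2 arrays, with Benjamini-Hochberg adjustment over all of them and a threshold of 0.05. It had no mouse term and 2 residual degrees of freedom. Day 1 samples were assumed to vary like day 3 samples. The second fit held the mouse as a block, with 1 residual degree of freedom. The labels give samples of 1 animal the same number, and across probes the difference between the mice correlated at 0.607 between the stimuli. Rose and fell refer to calls of the blocked fit. Both fits were run on simulated data with planted changes for the stimulus at day 3 only. Time and the difference between the days were not simulated. Pathway genes were read by the kept probe of highest mean, and named when past the threshold or among the 2 largest differences of a list. The genome build of the probe annotation is not given in the sources used here. The annotation names 23978 of 25697 probes. The members and lists were chosen with earlier results of these data known. Precision is limited by the number of mice, which is 2 at day 3 and 1 at day 1.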

Additional observations from a re-analysis of the deposited data

How the results depend on the processing

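For the stimulus at day 3 and for the difference between the days, the number of member probes called was 0 under each alternative run: neqc, offset 50, no background correction, 75th percentile scaling, no detection filter, detection on all 8 arrays, either technical array alone, each day 3 sample left out, and the replicate block with each normalization and filter. For time it was 0 without the block. Blocking on the mouse gave 2, and as many with neqc, offset 50 or no background correction, 4 with 75th percentile scaling (the 3 Cd28 probes and Zap70 ILMN_1223542), 3 with detection on all 8 arrays and 0 without the detection filter. The causes were not tested. Among single probes, Cd3g turned direction for time with the block, at -0.18 as deposited and without the filter or with detection on all arrays, -0.19 with neqc, -0.18 with offset 50 and without background correction, and -0.073 with 75th percentile scaling, against 0.30 without the block. Directions also turned when 1 day 3 sample was left out. Over these fits the stimulus difference ran from -0.42 (without Delta4-Ig mouse 2) to 0.89 (without Delta4-Ig mouse 1) for Cd3e, from -0.86 to 0.81 for Cd3g, from -0.32 to 1.81 and from -0.18 to 1.57 for Cd247 ILMN_1256639 and ILMN_2828172, and from -0.061 to 0.44 for Cd4, in each case with the same 2 fits at the ends. The change over time ran from -0.49 to 0.16 for Cd3e and from -0.11 to 0.72 for Cd3g. For the stimulus at day 3, the Cd3g difference over both mice was 0.0013 when mouse 1 was read by its first array only. Leaving out a sample together with the block left no residual degrees of freedom and was not run. Within-mouse values, chosen after seeing the data, turned direction for Cd3e (-0.41) and Cd4 (-0.19) in mouse 1 and Cd3g (0.67) in mouse 2 for the stimulus, and for Cd3g (-0.18) over time.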
